A study of Urocitellus parryii with 24 samples.

Results

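FASN, ELOVL6, SCD, and THRSP are 4 genes of de novo lipogenesis, the making of fatty acids from acetyl-CoA. Each was read from 1 cDNA probe in the liver of Arctic ground squirrels (AGS). They are 4 of the 1329 genes that could be paired with 1 of the 9600 probes on the membrane. A symbol was paired with the probe whose mean log2 values over torpor, arousal, and summer animals equalled the state means the study lists for that gene. The largest distance in a pair was 5.0e-06, the tolerance was 0.0001, and the next nearest probe of any gene lay at least 0.00532 away. The probes are gene7846 for FASN, gene6924 for ELOVL6, gene0249 for SCD, and gene2548 for THRSP. The files give no genome position for them. The listed genes were selected by the study for differences among the 3 states on these same arrays, and these 4 were then picked for their fall in hibernation. Differences among the states are therefore described below without a test.

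The liver turns surplus carbohydrate into fat when an animal is fed, and lowers this synthesis during fasting. FASN, fatty acid synthase, builds palmitate from malonyl-CoA. ELOVL6 lengthens palmitate to stearate, and SCD, stearoyl-CoA desaturase, puts a double bond into the product. THRSP, also called Spot 14, is a small protein that responds to thyroid hormone and carbohydrate and promotes lipogenesis. In fed liver these genes are switched on together by the transcription factors SREBP-1c and ChREBP under insulin and glucose.

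Liver RNA of 24 animals was hybridized, with 1 membrane per animal. There were 4 animals in early torpor, 5 in late torpor, 4 in early arousal, 4 in late arousal, and 7 that were active in summer. Following the study, the 9 torpor animals are called T, the 8 animals in arousal episodes A, and the 7 summer animals, which had finished reproduction and begun to molt, P. T and A animals were wild-caught AGS kept in a short photoperiod, implanted with a temperature transmitter, and without food for the whole of hibernation. Early and late torpor were sampled near the start and near the end of a bout at low body temperature. Early and late arousal were sampled soon after spontaneous rewarming and several hours later. P animals were not hibernating and serve as the control. T animals were killed without anesthesia, while A and P animals received isoflurane. Season, photoperiod, feeding, and hibernation therefore cannot be told apart in T and A against P. Anesthesia cannot be told apart from torpor in T against A, nor from these other differences in T against P. Strain, genotype, and age are not given for the groups.

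Filters were of 2 sets, A1 and A2, as the scanner files name them. All 9 T arrays, 7 of 8 A arrays, and 2 of 7 P arrays were A1, so filter set and season overlap strongly. Between 8157 and 9197 probes of an array were brighter than 2 times their background. The median signal lay from 54.1 to 132 and the median background from 13.3 to 19.9, in intensity units. P replicate 6 had the dimmest array, with the lowest median signal and the fewest bright probes. Early torpor replicate 4 had the highest background, 19.9. No spot of the 4 genes was saturated or marked as empty on any array. The smallest ratio of signal to local background over the 24 arrays was 34.8 for SCD, 46.6 for THRSP, 8.66 for ELOVL6, and 3.91 for FASN. Levels are given as log2 of the background-subtracted signal over the median of its array, so 0 is the middle probe of an array and a difference of 1 is a doubling. Levels of different probes cannot be set against each other, because probes bind label unequally.

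All 4 transcripts were lower in the liver of hibernating animals than in summer. ELOVL6 had the widest difference, with an 18.2-fold lower mean in T and an 18.1-fold lower mean in A. The means of the other genes were 3.72-fold to 5.73-fold lower in T and 5.37-fold to 6.92-fold lower in A. In whole liver, fewer cells expressing a gene and less RNA per cell cannot be told apart. None of the A animals reached the lowest P animal for any of the 4 genes, and the T animals stayed below all P animals for ELOVL6 and FASN. Of 9407 probes with a value above 0 on every array, 0.797% had all A arrays below all P arrays and 0.372% had all T arrays below all P arrays. Since these contrasts chose the genes, nothing is read from these shares.

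**Figure D1:**
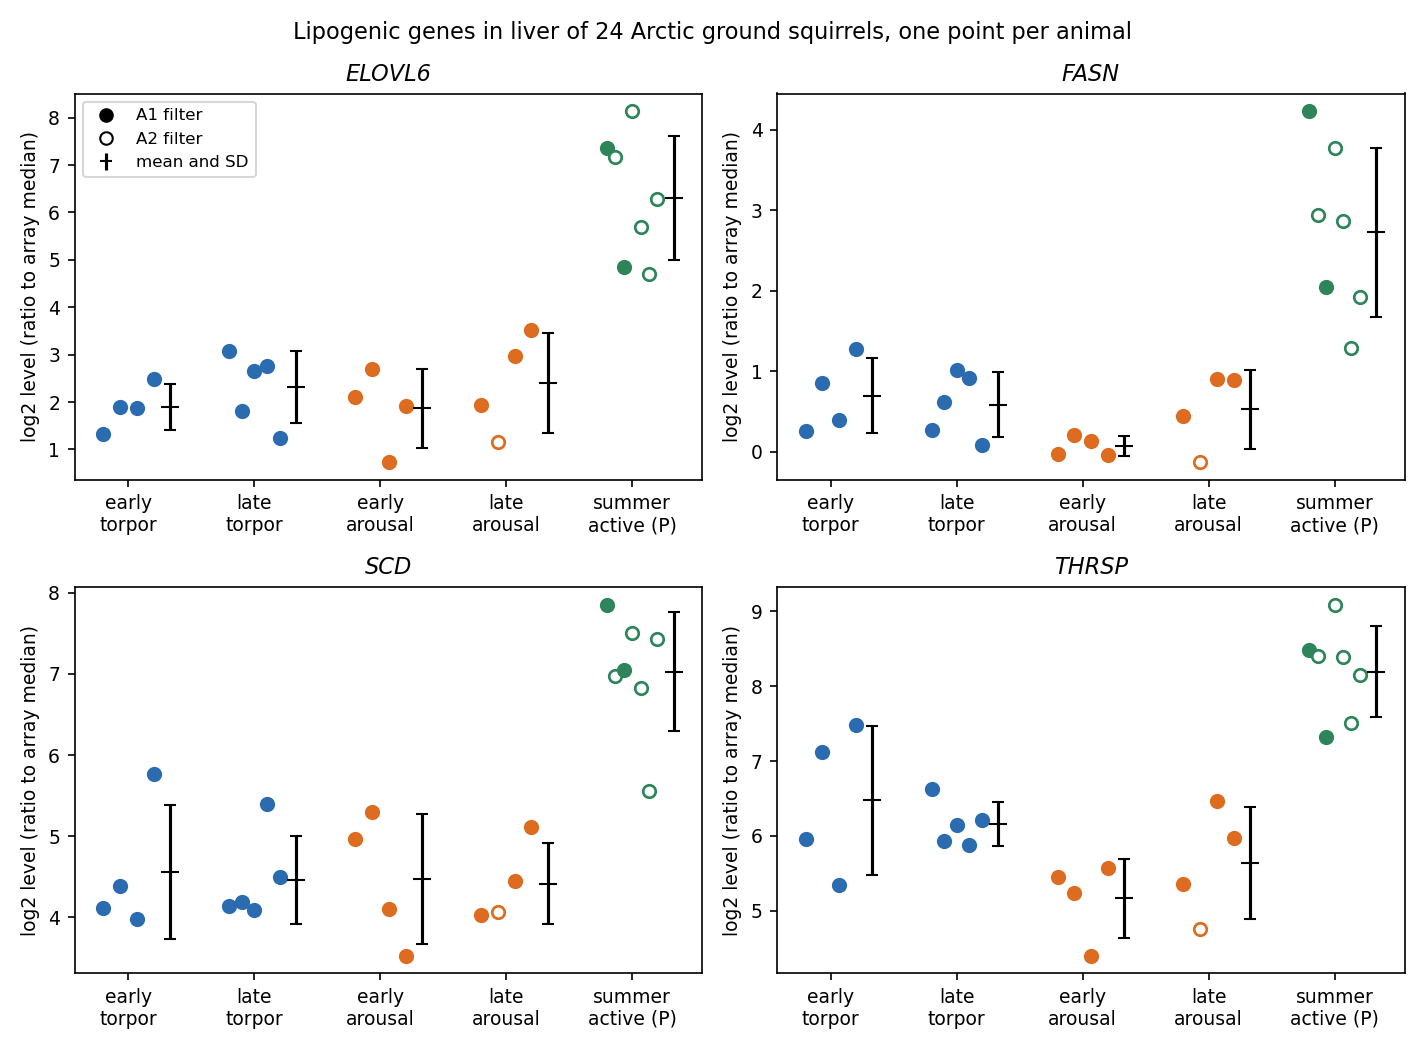
Level of each gene by status group, as log2 of the ratio to the array median (vertical axis), with 1 point per animal, filled for A1 filters and open for A2, and with the mean and SD of each group as bars. The P points stand above the A points in all 4 panels, and 1 early torpor point at 5.77 for SCD and at 7.49 for THRSP lies within the P range.

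FASN, which carries out the synthesis of palmitate, had levels in early torpor of 0.26, 0.86, 0.39, and 1.28 (replicates 1 to 4). In late torpor it was measured at 0.27, 0.62, 1.02, 0.92, and 0.09. These animals overlapped between the stages of torpor, with the highest in early torpor and the lowest in late torpor. Early arousal animals had FASN levels of -0.02, 0.21, 0.14, and -0.04. Late arousal animals had levels of 0.44, -0.13, 0.90, and 0.90. The 4 early arousal animals were close together and all lay below the 4 early torpor animals, by a gap of 0.05 on the log2 scale. Such a separation, all early arousal arrays below all early torpor arrays, was found for 4.92% of 9407 probes. In P the lowest, median, and highest FASN levels were 1.29, 2.87, and 4.23. The lowest P animal, replicate 6, exceeded the highest T animal, early torpor replicate 4, by only 0.01. FASN averaged 0.63 (SD 0.41) over the 9 T, 0.30 (SD 0.41) over the 8 A, and 2.72 (SD 1.05) over the 7 P animals. Against P, FASN differed by -2.09 (SE 0.31) in T and by -2.42 (SE 0.31) in A. From high to low the group means ran P, early torpor 0.70, late torpor 0.58, late arousal 0.53, and early arousal 0.07. Below P, neighbours in this order differed by less than the larger of their SDs.

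ELOVL6, the elongase that acts on the product of FASN, was at 1.32, 1.90, 1.87, and 2.49 in the early torpor animals. The late torpor animals had ELOVL6 levels of 3.08, 1.81, 2.66, 2.76, and 1.25. The highest and the lowest of all T animals were thus both in late torpor. In early arousal the levels were 2.11, 2.70, 0.73, and 1.91. In late arousal they were 1.94, 1.15, 2.97, and 3.52. The animals of these 4 hibernating groups overlapped in every pairing. In P the lowest, median, and highest ELOVL6 levels were 4.69, 6.28, and 8.14. The lowest P animal was 1.61 above the highest T animal and 1.17 above the highest A animal, the widest gaps of the 4 genes. ELOVL6 averaged 2.13 (SD 0.65) over the 9 T, 2.13 (SD 0.92) over the 8 A, and 6.31 (SD 1.31) over the 7 P animals. The difference from P was -4.18 (SE 0.44) in T and -4.18 (SE 0.45) in A. Counted from the most negative, ELOVL6 ranked 2 of 9599 probes in T against P and 2 of 9600 in A against P. Below P, late arousal had a mean of 2.40, late torpor 2.31, early torpor 1.90, and early arousal 1.86, and neighbours differed by less than the larger of their SDs.

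SCD, the desaturase that makes monounsaturated fatty acids, had levels of 4.12, 4.39, 3.98, and 5.77 in early torpor. In late torpor SCD was at 4.14, 4.19, 4.09, 5.40, and 4.50. Most T animals lay within a narrow band near 4, and early torpor replicate 4 and late torpor replicate 4 stood above it. Early arousal animals were at 4.96, 5.30, 4.11, and 3.53. Late arousal animals were at 4.03, 4.07, 4.45, and 5.11. The A animals covered the range of the T animals except these high values. P animals had a lowest, median, and highest SCD level of 5.56, 7.05, and 7.85. The lowest of them, P replicate 6, was 0.21 below early torpor replicate 4, so T and P overlapped for SCD. P replicate 6 had the dimmest array and early torpor replicate 4 the highest background. Their SCD spots were at 49.7 and 65.2 times local background, and whether array quality bears on the overlap was not tested. Leaving out each array in turn, those 2 included, kept the difference of T from P between -2.76 and -2.38. SCD averaged 4.51 (SD 0.64) over the 9 T, 4.44 (SD 0.62) over the 8 A, and 7.03 (SD 0.74) over the 7 P animals. The difference from P was -2.52 (SE 0.31) in T and -2.58 (SE 0.32) in A. The 4 hibernating group means, 4.56, 4.47, 4.46, and 4.42 for early torpor, early arousal, late torpor, and late arousal, differed by less than their SDs of 0.50 to 0.82.

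THRSP, the thyroid hormone responsive protein, was at 5.96, 7.12, 5.34, and 7.49 in early torpor. In late torpor THRSP levels were 6.63, 5.93, 6.15, 5.88, and 6.21. Early torpor animals were more scattered than late torpor animals, with an SD of 0.996 against 0.297. In early arousal THRSP was at 5.45, 5.24, 4.40, and 5.57. In late arousal it was at 5.36, 4.76, 6.47, and 5.97. All early arousal animals lay below all late torpor animals, by 0.31, as was the case for 4.65% of 9407 probes. In P the lowest, median, and highest levels were 7.32, 8.39, and 9.09. Early torpor replicate 4 exceeded the lowest P animal, replicate 3, by 0.16, and without each array in turn the difference of T from P stayed between -2.04 and -1.74. THRSP averaged 6.30 (SD 0.67) over the 9 T, 5.40 (SD 0.65) over the 8 A, and 8.19 (SD 0.61) over the 7 P animals. Against P, THRSP differed by -1.89 (SE 0.30) in T and by -2.79 (SE 0.31) in A. T was 0.90 (SE 0.29) above A, or 1.86-fold, with overlapping animals, and by 0.49 (SE 0.30) with quantile normalization. The same difference, T minus A, was 0.33 (SE 0.30) for FASN, 0.06 (SE 0.30) for SCD, and -0.0040 (SE 0.42) for ELOVL6. After P, the THRSP group means ran early torpor 6.48, late torpor 6.16, late arousal 5.64, and early arousal 5.17, with neighbours below P again closer than the larger of their SDs.

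Against all probes, the differences of these genes lay far out on the lower side. In T against P, ranks from the most negative were 14 for SCD, 19 for FASN, and 30 for THRSP of 9599 probes, and in A against P they were 9, 14, and 8 of 9600. The median probe differed by -0.02 in T and by -0.05 in A. Counted over all probes, limma called 4.35% of 9599 lower in T and 5.85% of 9600 lower in A. These ranks and shares describe how the genes were picked and carry no test. T and A share the P animals as their control, so both differences move together with the P values.

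**Figure D2:**
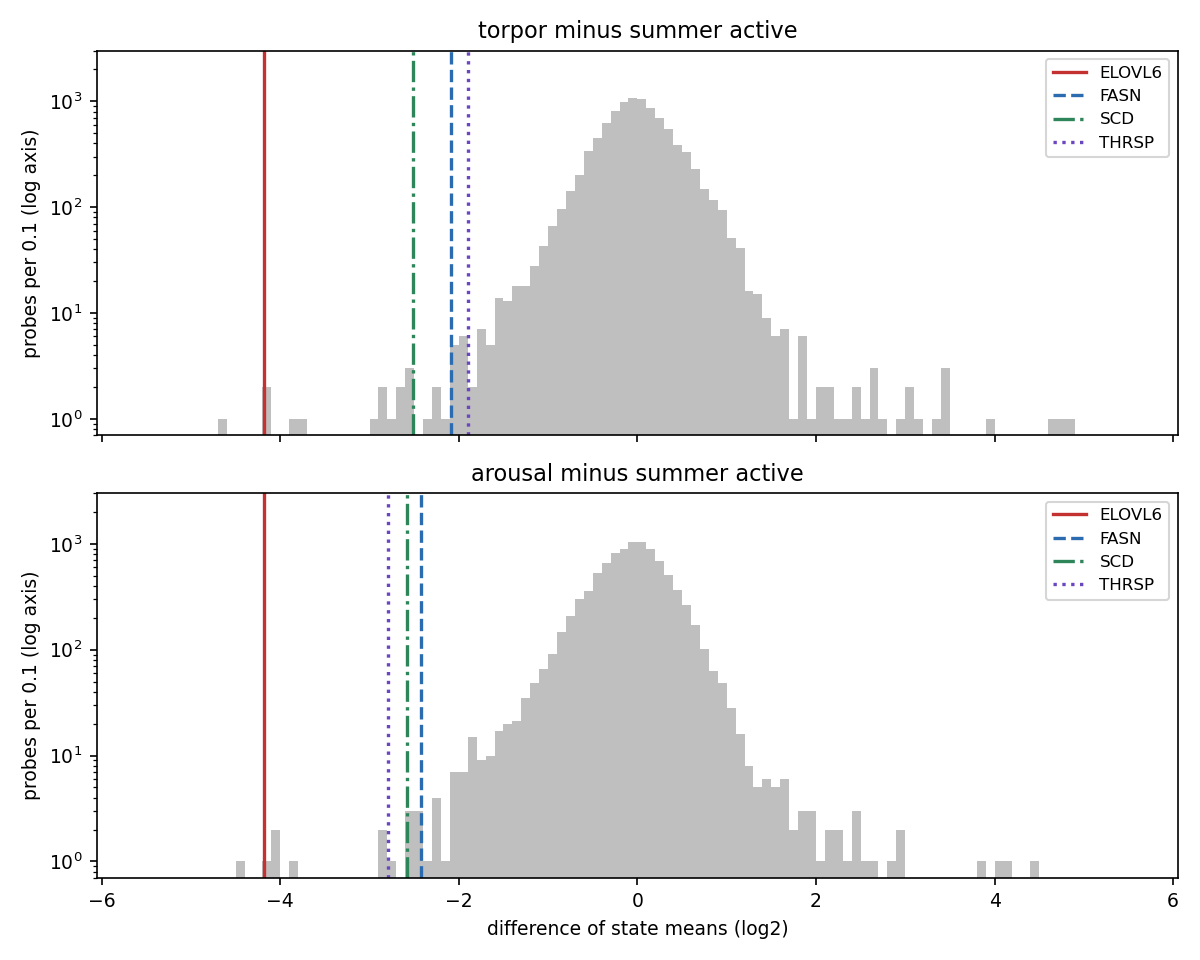
Differences of all probes in log2 (horizontal axis) of T from P (top) and of A from P (bottom), as the number of probes per 0.1 on a log axis, with a line for each of the 4 genes. ELOVL6 stands at -4.18 in both panels, apart from the other 3 genes, which lie between -2.79 and -1.89.

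Spread among the animals of a state differed between the genes. In P the SD of ELOVL6 was larger than that of 99.4% of 9407 probes, and the SD of FASN larger than that of 98.5%. For SCD this share was 92.2%, and for THRSP 83.3%. In hibernation the SD of FASN, 0.41 in both T and A, was above that of 67.1% of probes in T and 47.5% in A. ELOVL6 varied widely in all states, at 94.4% in T and 98.1% in A. The P animals ran in ELOVL6 from 4.69 in replicate 6 to 8.14 in replicate 4.

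The study pooled early and late torpor, and early and late arousal, so differences between these stages were not used to choose the genes and could be tested with limma. Early minus late torpor was -0.42 for ELOVL6 (95% interval -1.64 to 0.80), 0.11 for FASN (-0.74 to 0.97), 0.10 for SCD (-0.78 to 0.98), and 0.32 for THRSP (-0.51 to 1.14). None passed, each with a limma adjusted p of 0.998. Early minus late arousal was -0.53 for ELOVL6 (-1.82 to 0.75; limma adjusted p = 0.88) and -0.46 for FASN (-1.36 to 0.44; limma adjusted p = 0.85). It was 0.06 for SCD (-0.86 to 0.98; limma adjusted p = 0.98) and -0.47 for THRSP (-1.34 to 0.40; limma adjusted p = 0.83). Of all probes, limma called 0 of 9595 (0.0%) between the stages of torpor and 0 of 9597 (0.0%) between those of arousal, with 458 and 748 at an unadjusted p under 0.05. None of the 4 genes was among these. The intervals are wide, and single arrays moved the values. Without 1 array, early minus late arousal ran from -0.95 to -0.16 for ELOVL6, lowest without late arousal replicate 2 and highest without early arousal replicate 3 or late arousal replicate 4, and from -0.77 to -0.20 for THRSP, at its ends without late arousal replicates 2 and 3. Early minus late torpor of ELOVL6 ran from -0.68 without late torpor replicate 5 to -0.22 without early torpor replicate 1 or late torpor replicate 1. In torpor, the sign for FASN, SCD, and THRSP turned without early torpor replicate 4, giving -0.08, -0.30, and -0.02.

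Filter sets were compared within states, again with limma. A2 minus A1 was -0.24 (SE 0.58; limma adjusted p = 0.82) for ELOVL6, -0.54 (SE 0.39; limma adjusted p = 0.35) for FASN, -0.53 (SE 0.39; limma adjusted p = 0.37) for SCD, and -0.03 (SE 0.40; limma adjusted p = 0.97) for THRSP. The 95% intervals reached from -1.43 to 0.94, -1.34 to 0.26, -1.34 to 0.28, and -0.84 to 0.78. Without 1 array the value for SCD ran from -0.70 to -0.31, smallest in size without P replicate 1 or 6. None of the 4 genes was called, while 20.1% of 9596 probes were. Among the P animals alone, the 2 on A1 filters had ELOVL6 levels of 7.35 and 4.85, inside the range of the 5 on A2 filters, and an exact permutation test of 21 splits gave p = 0.952. For FASN the difference within P was -0.58 (exact permutation p = 0.571), for SCD -0.59 (exact permutation p = 0.381), and for THRSP 0.41 (exact permutation p = 0.571). The smallest p this split allows is 0.0952. On A1 filters only, where 2 P animals remain, T minus P was -3.98 for ELOVL6, -2.50 for FASN, -2.94 for SCD, and -1.60 for THRSP. With the filter set as a term in the fit it was -4.36, -2.48, -2.90, and -1.91 in the same order. Each of the 4 differences thus kept its direction within A1 filters.

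**Figure D3:**
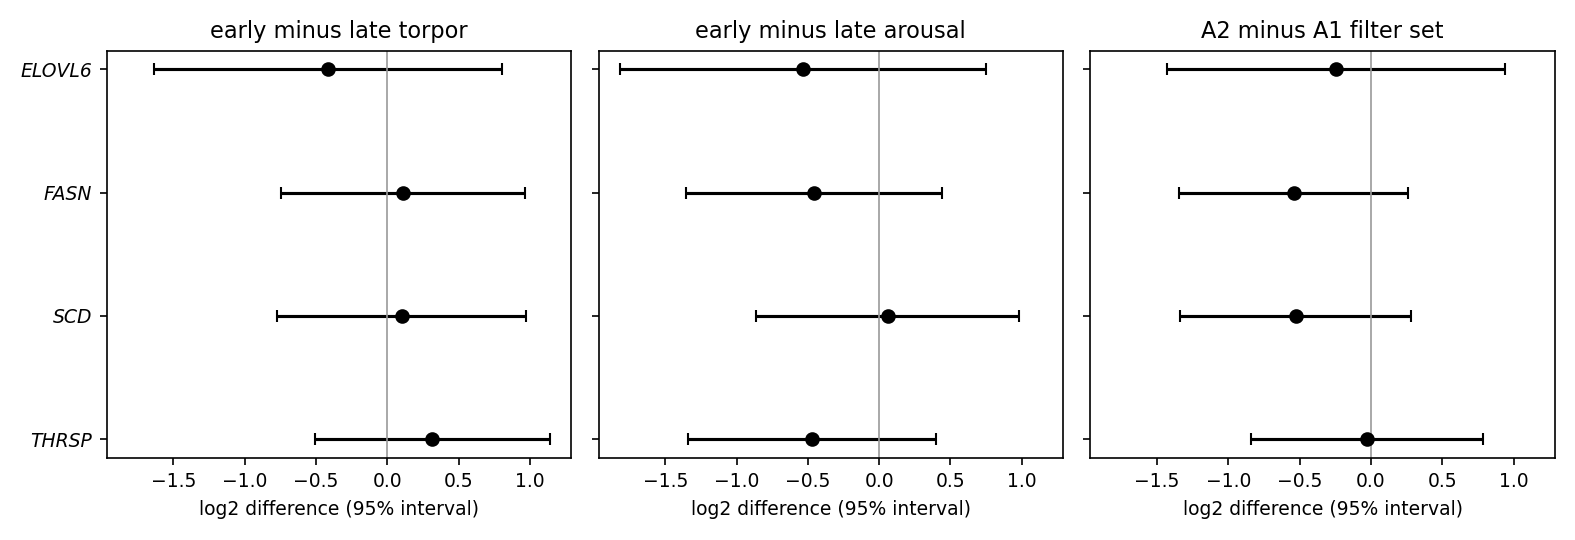
Log2 differences (horizontal axis) with 95% intervals from limma for each gene, for early minus late torpor, early minus late arousal, and the A2 minus the A1 filter set. All 12 intervals include 0, and the points lie between -0.54 and 0.32.

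Pooled over all states, animals of the same state differed in these genes together. Deviations were not scaled by state, so a state with a larger SD, such as P for ELOVL6 and FASN, weighs more in r. The state means were removed from each gene, and the deviations of the 24 animals were correlated for the 6 pairs of genes, with 100000 shuffles within states and adjustment over the 6 pairs. ELOVL6 and FASN, successive enzymes, had the highest correlation, r = 0.75 (permutation p = 5.8e-04, adjusted p = 0.00128). ELOVL6 and THRSP had r = 0.68 (permutation p = 2.2e-04, adjusted p = 0.00128), and FASN and THRSP r = 0.62 (permutation p = 6.4e-04, adjusted p = 0.00128). SCD followed FASN with r = 0.59 (permutation p = 0.0027, adjusted p = 0.0041) and ELOVL6 with r = 0.57 (permutation p = 0.0053, adjusted p = 0.0063). The weakest pair was SCD and THRSP, with r = 0.45 (permutation p = 0.035, adjusted p = 0.035).

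By Spearman's rho the same pairs, in the order given, had values of 0.71, 0.69, 0.61, 0.46, 0.52, and 0.41. For each pair, r was also taken without the 2 animals whose deviations of its first-named gene lay farthest from the median. These animals were not the same for every pair. Leaving out the extreme animals of a gene narrows its range, which by itself can lower r. So taken, r was 0.64 for ELOVL6 and FASN, 0.61 for ELOVL6 and THRSP, and 0.65 for FASN and THRSP. It was 0.47 for ELOVL6 and SCD, but 0.21 for SCD and THRSP, which no longer passed (permutation p = 0.40, adjusted p = 0.40). For FASN and SCD it was 0.37 (permutation p = 0.059, adjusted p = 0.071), so that pair no longer passed without its 2 animals. The same pair passed by Spearman's rho (permutation test, adjusted p = 0.029) and without each single array (r from 0.44 to 0.66). On A1 filters only, r ranged from 0.41 for SCD and THRSP to 0.73 for ELOVL6 and FASN. With both state and filter set removed it ranged from 0.50 for SCD and THRSP to 0.78 for ELOVL6 and FASN. P replicate 6 had the lowest ELOVL6, FASN, and SCD of the P animals, and early torpor replicate 4 the highest FASN, SCD, and THRSP of the T animals. Without early torpor replicate 4 the correlation of SCD and THRSP was 0.32 (permutation test, adjusted p = 0.17).

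Within single states all 18 correlations were positive. In P, r ran from 0.59 to 0.92, in A from 0.25 to 0.86, and in T from 0.27 to 0.62. The highest was that of ELOVL6 and THRSP in P, with r = 0.92 and rho = 0.93 (n = 7, exact permutation p = 0.0032 for r, adjusted over 18 p = 0.057). The same pair had r = 0.86 in A (n = 8, exact permutation p = 0.0081, adjusted p = 0.073) and r = 0.27 in T (n = 9, exact permutation p = 0.47, adjusted p = 0.50). Exact permutation gave an unadjusted p under 0.05 for 4 of 6 pairs in P, 3 of 6 in A, and 0 of 6 in T, and 0 of 18 after adjustment. Whether correlations differ between states was not tested.

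**Figure D4:**
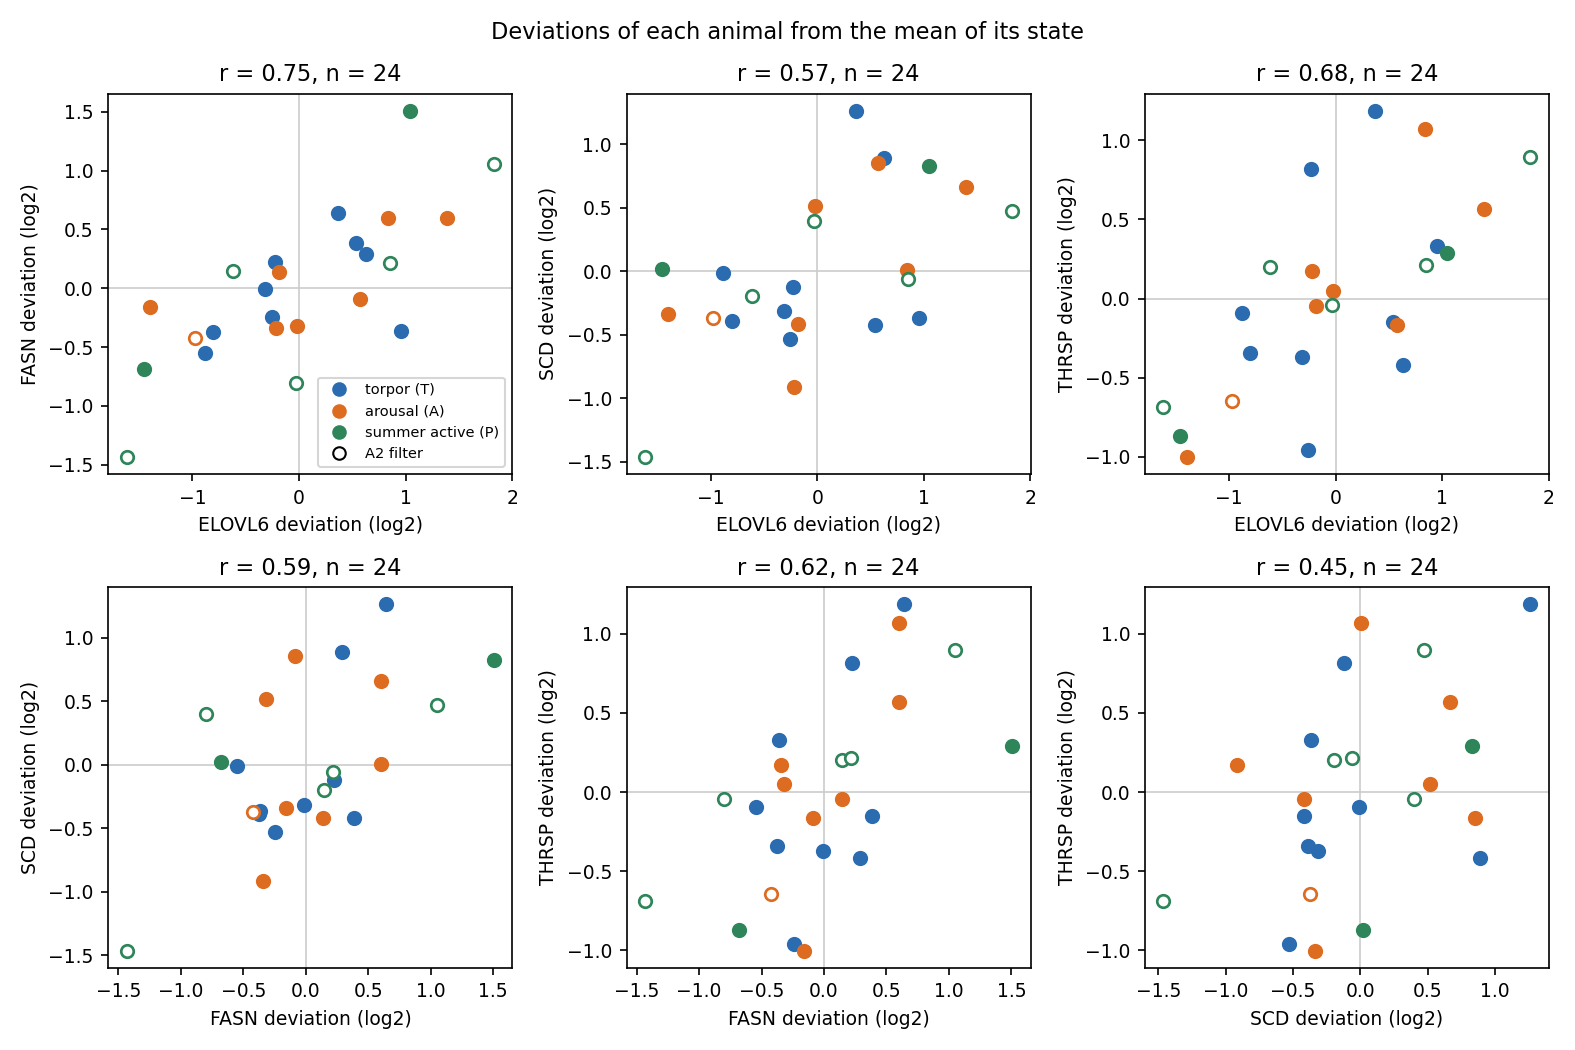
Deviation of each animal from its state mean in log2, for the 6 pairs of genes, with 1 point per animal coloured by state and open for A2 filters. Animals high in ELOVL6 were high in FASN (r = 0.75) and THRSP (r = 0.68), and the cloud is widest for SCD and THRSP (r = 0.45).

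Deviations of these genes were also correlated with those of 9406 other probes, as a description. The median probe had r between 0.02 and 0.03, and the 95th percentile lay between 0.36 and 0.43. For ELOVL6 the closest of all probes was FASN, and THRSP ranked 4. For THRSP the closest was ELOVL6, and FASN ranked 7. For FASN, ELOVL6 ranked 4, THRSP 38, and SCD 57. SCD ranked 44 for ELOVL6 and 157 for THRSP, and for SCD itself FASN ranked 58, ELOVL6 72, and THRSP 373, behind many other probes. Named probes nearest to ELOVL6 were FASN, THRSP, and GPT (r = 0.66), an alanine aminotransferase. Among those nearest to FASN were ELOVL6 and HSD17B12 (r = 0.75), a ketoacyl-CoA reductase of fatty acid elongation. Those nearest to SCD were SLCO1B3 (r = 0.76), an organic anion transporter of hepatocytes, PCSK6 (r = 0.75), a proprotein convertase, and TMEM85 (r = 0.70). THRSP was nearest to ELOVL6, PCSK6 (r = 0.62), and FASN. Correlation of the 4 genes' deviations with the median signal of the array was between -0.08 and 0.03, and with its median background between 0.14 and 0.26. It was between 0.07 and 0.24 with the number of empty spots.

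Animal identifiers begin with 04 in 7 of 9 T, 7 of 8 A, and 1 of 7 P animals. What the prefix stands for is not given. In T, the 7 animals with prefix 04 had an SCD mean of 4.20 ± 0.18 (SD, n = 7), and the other animals had SCD levels of 5.40 and 5.77. Within states, animals of other prefixes differed from those with 04 by 0.74 in SCD, 0.71 in FASN, 0.74 in ELOVL6, and 0.42 in THRSP, with limma adjusted p from 0.46 to 0.73. Without 1 array these ran up to 1.16 for SCD (without P replicate 7), down to 0.43 for ELOVL6 (without late arousal replicate 4), and from 0.13 to 0.67 for THRSP (without replicate 4 of early and of late torpor). On A1 filters only the value for SCD was 1.15 (limma adjusted p = 0.11). This comparison was added after the values were seen. Of all 9593 probes limma called 0 (0.0%), with 915 at an unadjusted p under 0.05, SCD and FASN among them. With the prefix as a term in the fit, T minus P was -3.72 for ELOVL6, -1.64 for FASN, -2.05 for SCD, and -1.63 for THRSP. A minus P was then -3.64, -1.91, -2.04, and -2.48 in the same order. Each was smaller in size than without the term, and prefix and season overlap strongly.

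Other steps of the pathway were taken from written lists of genes, of which those paired with a probe could be read. All paired genes were selected by the study on these same arrays, so their counts are no independent evidence of direction. Limma called 9.86% of all probes for T against P, and 8.47% for A against P (adjusted p under 0.05). These are 946 of 9599 and 813 of 9600 probes. With the filter set as a term in the fit, 93 of 9599 and 260 of 9600 were called. Calls of list and marker genes below come from the fit without that term, so filter set and season cannot be told apart in them. Of the 1329 paired genes, 21.7% were called lower in T and 25.6% higher, and 26.4% were called lower in A and 12.1% higher.

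Supply of acetyl-CoA and NADPH was represented by 6 of 12 listed genes. Of these, 4 were lower in T and 5 in A, with 0 higher, and the median differences were -1.25 and -1.42 against -0.05 and -0.27 over all paired genes. ACLY, ATP citrate lyase, which releases acetyl-CoA in the cytosol, was lower by the most, with -2.89 (SE 0.56) in T and -2.84 (SE 0.57) in A. PGD, a NADPH-forming enzyme of the pentose phosphate pathway, differed by -1.72 (SE 0.19) and -1.46 (SE 0.20), with every T and A animal below every P animal, which held for 0.17% of 9407 probes. TALDO1 differed by -1.35 and -1.45, and TKT by -1.16 and -1.38. Both belong to the non-oxidative branch of that pathway. MDH1, cytosolic malate dehydrogenase, was called in A at -0.92 and not in T at -0.55, which does not show that T and A differ in it.

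Of 18 listed genes of fatty acid synthesis, elongation, and desaturation besides the 4, 3 were paired. ELOVL5, which elongates polyunsaturated fatty acids, was lower in both, by -1.32 (SE 0.29) in T and -1.74 (SE 0.30) in A. HSD17B12 was called in A at -0.70 and not in T at -0.19, and MECR, of mitochondrial fatty acid synthesis, was called in neither at -0.65 and -0.67. The median over the list was -0.65 in T and -0.70 in A.

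Assembly and storage of triglyceride, which uses the fatty acids made, was mixed in direction. Of 11 paired among 22 listed genes, 3 were lower and 5 higher in T, and 4 lower and 2 higher in A, with medians of -0.22 and -0.71. The list also takes in lipases that break triglyceride down, PNPLA2, called higher in T at 0.77 and at 0.16 in A, and LIPA, called in neither at -0.22 and -0.71. GPAM, which starts glycerolipid synthesis at the mitochondrion, was lower in both, by -1.95 (SE 0.28) and -2.27 (SE 0.29). AGPAT3, an acyltransferase, was lower too, at -0.64 and -0.82. AGPAT6, another acyltransferase of the pathway, was higher, at 1.11 and 1.05. LPIN2, a phosphatidate phosphatase, was also higher, at 1.22 (SE 0.38) and 1.76 (SE 0.39).

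Regulators of lipogenesis had 8 of 29 genes paired, with 3 lower and 3 higher in T, and 2 lower and 0 higher in A. The medians were 0.24 and -0.13. INSIG1, an anchor that retains SREBP in the endoplasmic reticulum and is itself an SREBP target, was lower by -2.08 (SE 0.22) in T and -1.51 (SE 0.23) in A, with no overlap with P. FOXO3, a forkhead factor restrained by insulin signalling, was lower by -1.35 (SE 0.24) and -1.26 (SE 0.24). INSIG2 was called higher in T, at 1.85, and was at 1.13 in A without passing. THRA, a thyroid hormone receptor, was called higher in T at 0.58, and stood at 0.25 in A.

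**Figure D5:**
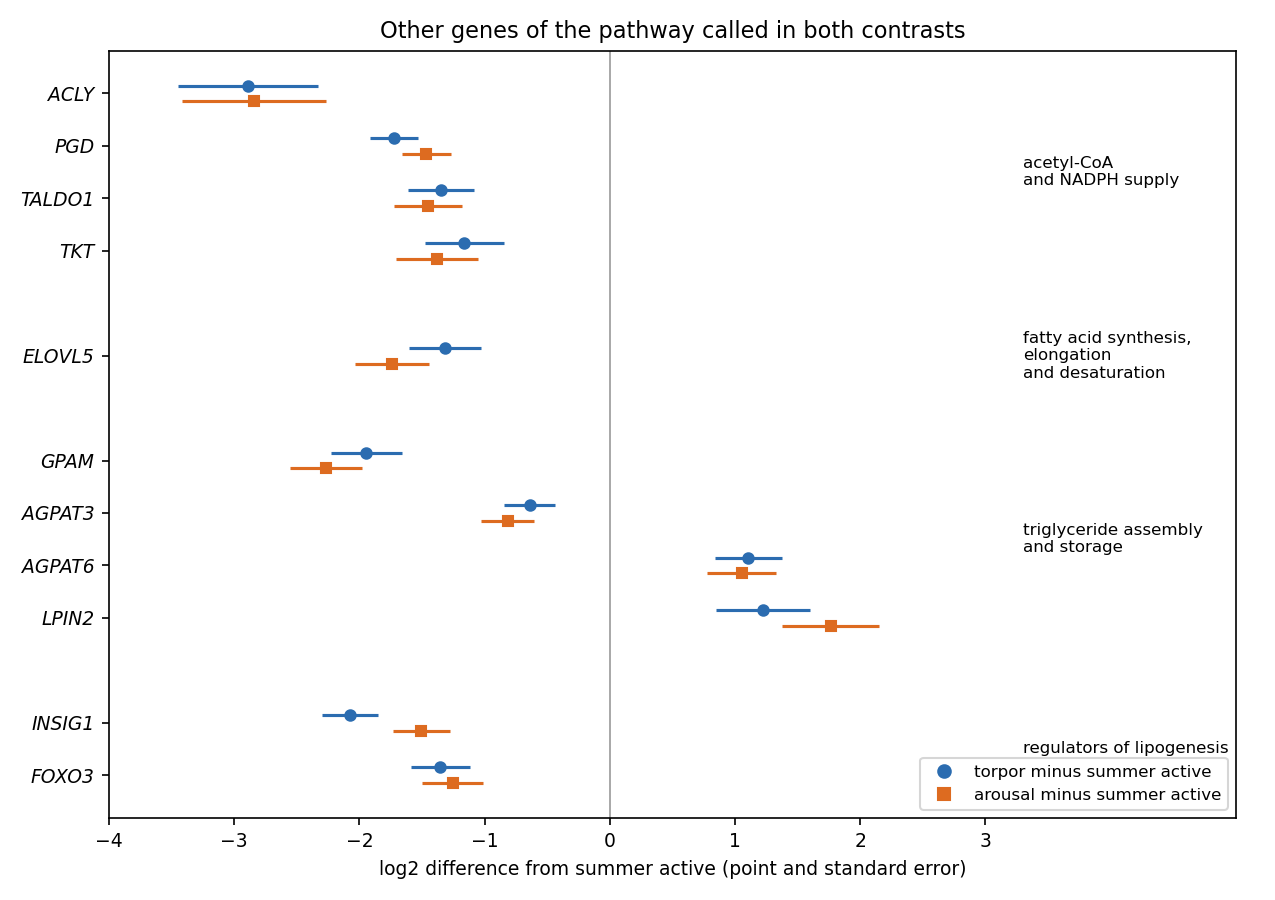
Log2 difference from P (horizontal axis, point and SE) of T and A for the paired genes of 4 lists around the pathway that limma called in both contrasts. ACLY at -2.89 in T lies farthest to the left, the acetyl-CoA and NADPH genes shown lie below 0, and triglyceride genes fall on both sides, from GPAM at -2.27 in A to LPIN2 at 1.76 in A.

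Markers of liver and of other cell types were read beside these results. Hepatocyte markers, with 11 of 19 paired, had a summed ratio to the array median of 588 to 1422 in T, 465 to 800 in A, and 717 to 1042 in P. Of these 11, limma called 3 lower and 4 higher in T, and 5 lower and 1 higher in A. Their differences from P ran from -1.74 to 2.02 in T, with a median of -0.23, and from -1.88 to 1.12 in A, with a median of -0.78. ALB, albumin, had mean levels of 8.82 in T, 8.41 in A, and 8.26 in P, and was called in neither contrast. The only paired adipocyte marker of 9, FABP4, was at a ratio of 0.895 to 1.34 in T, 0.862 to 1.50 in A, and 0.715 to 1.16 in P, so it was not lower in the hibernating animals. Stellate cell and fibroblast markers, 5 of 11 paired, summed to 2.60 to 4.42 in T, 2.58 to 3.96 in A, and 3.08 to 4.77 in P. For leukocytes (LYZ, 1 of 12) the ratio was 2.78 to 14.4 in T, 2.54 to 7.40 in A, and 3.62 to 18.4 in P. For cholangiocytes (SOX9, 1 of 6) it was 0.944 to 1.52 in T, at most 1.98 in A, and 1.45 to 2.21 in P. For red blood cells (HBA2, 1 of 7) it was 0.973 to 7.81, 0.402 to 2.42, and 1.55 to 2.42 in the same order. Of these other markers, limma called SOX9 lower in T, at -0.51, and LYZ lower in A, at -1.14, beside the 4 genes, and of the stellate cell list 1 lower and 1 higher in T and 1 lower in A. None of 8 endothelial markers was paired, and no marker value was at or below 0. The part of other cell types in the differences of the 4 genes was not tested.

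The probes' places on the membrane bear on ELOVL6 and FASN. Both adjoin brighter spots, and their signal was as low as 0.0466 and 0.0174 of that of a neighbour on 1 array. The brightest neighbours, those to the left, right, and above ELOVL6, differed between T and P by 0.01 to 0.14, and those above and to the right of FASN by 0.18 and 0.30, so the means of these neighbours were not lower in T. In A against P these same neighbours of ELOVL6 differed by -0.61 to 0.10 and those of FASN by -0.02 and -0.09. The dimmer spots below ELOVL6 and FASN were higher than in P, by 1.50 and 0.70 in T and by 1.25 and 0.76 in A. The spot to the left of FASN differed by 0.13 in T and by -0.06 in A. SCD and THRSP were brighter than each neighbour on every array, by at least 3.3-fold and 8.63-fold.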

How the data were processed

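Liver RNA was amplified, labelled with 33P, and hybridized by the authors in 1 batch, and membranes were read on a phosphorimager. The deposited scanner files are ImaGene 6.1.0 output and give spot intensity and local background intensity, unsubtracted, as medians and means over pixels. The authors also deposited a ratio per spot, its background-subtracted median signal over the array median, with empty spots and spots at or below 0 set to 0.002. The ratio recomputed here differed from it by less than 5e-07 at other spots. The log2 of the recomputed ratio was used, with the 668 values at or below 0 as missing among 230400 spots. Of the 2258 spots marked as empty, those with a recomputed ratio above 0 were kept. Where several probes carried a gene, the study listed the probe with its smallest ANOVA p, and only listed probes could be named.

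The 4 genes and all lists were chosen with earlier results of these data known. Genes named from a pathway list are those called in both T and A against P, with uncalled genes named to complete a list or chosen after their values were seen, and for each of the 4 the nearest 3 named probes by correlation. Values of some genes that met these rules are left out. Differences and standard errors came from limma 3.58.1 in R 4.3.3 (lmFit, eBayes), fitted to all probes over 3 states, over 5 groups, or over state and filter set, with Benjamini-Hochberg adjustment over all probes and calls at 0.05. Correlations used numpy 2.4.6 and scipy 1.17.1, with 100000 permutations, 2-sided, or exact ones within a state.

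On simulated arrays with 200 of 9407 probes changed by 1 on the log2 scale, limma recovered 92 between stages of torpor, 77 between stages of arousal, and 97 between filter sets, with 5, 4, and 5 false calls. The changed probes were drawn at random. Residual SDs of the 4 genes over 5 groups were 0.65 to 0.99, while the median SD of all probes within a state was 0.34 to 0.42. These counts therefore do not give the sensitivity for the 4 genes. The number of arrays limits the precision. Alternatives were normexp with an offset of 50, quantile normalization, the floor of 0.002, the deposited ratio, mean pixels, dropping the 400 probes not over 2 times background on at least 7 arrays, A1 filters only, filter set or identifier prefix as a block, and leaving out each array. The prefix difference, and correlations with the prefix removed, were added after the data were seen. Promoter and protein sequences were not analysed here.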

Additional observations from a re-analysis of the deposited data

How the results depend on the processing

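The differences of the 4 genes from P, and of T from A, were given without a test. Those from P kept their direction under all alternatives and without each array, but not their size. For FASN, T minus P lay between -2.50 and -1.62 under the alternatives, and A minus P between -2.78 and -1.82. Both were smallest in size with normexp. Under the alternatives, T minus A lay between -0.30 and 0.10 for SCD and between 0.49, with quantile normalization, and 0.92 for THRSP. Leaving out each array put it between -0.09 and 0.19 for SCD, 0.75 and 1.05 for THRSP, and -0.20 and 0.19 for ELOVL6. No difference between stages or filter sets passed under any alternative. SCD, early minus late arousal, was -0.055 on A1 filters only and -0.077 with the filter set as a block. A2 minus A1 was 0.047 for THRSP with the identifier prefix as a block, and within P it was 0.29 for ELOVL6 and 0.41 for THRSP. Leaving out each array gave A2 minus A1 from -1.04 to 0.29 for ELOVL6, -1.06 to 0.0031 for FASN, and -0.46 to 0.41 for THRSP. The sign turned without P replicate 1 for each of these 3, without late arousal replicate 2 for ELOVL6 and THRSP, and for THRSP also without late arousal replicate 3 or 4 or P replicate 6. Early minus late arousal ran from -0.22 to 0.37 for SCD, with the sign turned without early arousal replicate 1 or 2 or late arousal replicate 1 or 2. Early minus late torpor ran from -0.081 to 0.26 for FASN, -0.30 to 0.33 for SCD, and -0.021 to 0.69 for THRSP, negative without early torpor replicate 4, and for FASN also without late torpor replicate 5.

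The correlations of ELOVL6 with FASN, ELOVL6 with THRSP, and FASN with THRSP passed under every alternative. That of SCD and THRSP no longer passed with quantile normalization (0.40), on A1 filters only (0.41), by Spearman's rho (0.41), without its 2 farthest animals (0.21), or with the prefix removed (0.38). It ran from 0.32 to 0.53 without each array and was lost without late arousal replicate 4, early torpor replicate 3 or 4, or P replicate 6. On A1 filters only, ELOVL6 and SCD (0.50) and FASN and SCD (0.49) were lost, the latter also without its 2 farthest animals (0.37). The cause was not tested. FASN, at 3.91 times background on its dimmest array, has the least margin over background. Correlations were not recomputed without dim probes, a filter that leaves these 4 probes unchanged. No paired analysis was possible because the replicate numbers are in accession order and tie no animals together.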
